A study of Mus musculus with 8 samples.

Results

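The mRNA levels of 9 myelin and mature oligodendrocyte genes were compared between sham and BCAS mice in the right cerebral cortex. The genes were taken by symbol from the deposited count tables and are Mbp, Mog, Mag, Mobp, Cnp, Cldn11, Opalin, Mal and Aspa. They are 9 of the 54752 genes in the tables, and all 9 were among the 17136 genes that passed the filter on low counts. In edgeR none of the 9 differed between the groups at an adjusted p under 0.05, while DESeq2 called Cldn11, and their fold changes ran from 0.811 for Opalin to 1.44 for Cldn11. Relative to Mbp, the counts of Opalin, Mal, Mog and Mag lay below the whole sham range in 4 of 4 BCAS mice, as did those of 13.4% of all tested genes (exact permutation test for the 4 genes, adjusted p = 0.0571).

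Oligodendrocytes wrap axons of the central nervous system in myelin, a stack of membrane sheets that insulates the axon and speeds conduction. Compact myelin is held together by a few abundant proteins, MBP among them. The outer surface, the non-compact channels and the tight junctions of the sheath have proteins of their own, and the cell body makes the enzymes that supply its lipids. Genes of this program are switched on as precursors mature, under transcription factors such as MYRF and SOX10.

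The study compared adult male C57BL/6 mice (C57BL/6 J in the methods) of WT (wild-type) genotype after sham operation or after bilateral carotid artery stenosis (BCAS), a model of chronic cerebral hypoperfusion. In the BCAS mice a microcoil was placed around each common carotid artery, with a narrower coil on the right, and the sham mice had the same operation without coils. The right cerebral cortex was taken 3 weeks later from 4 mice per group, 1 mouse per library. In such bulk tissue, fewer oligodendrocytes and less RNA per oligodendrocyte cannot be told apart.

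The total count was 16759364 to 18564612 in the sham libraries and 17498316 to 21794435 in the BCAS libraries. Among all tested genes, 32.0% differed between the groups at an adjusted p under 0.05 in edgeR, 19.2% higher and 12.8% lower in BCAS mice. The library of sham mouse 3 stood apart in choroid plexus genes, with a summed level of 1360 CPM (counts scaled to the size of the library) against 297 to 338 in the other sham mice. The fold changes of the members and the counts of the gene lists that change without it are therefore given both ways. The markers of oligodendrocytes were present in every library, and of the genes of Schwann cells, which make peripheral myelin, Prx had 19 to 45 counts and Ncmap 5 to 23 counts per library (named after their values were seen). The whole Schwann cell list, which holds genes shared with other cells, summed to 115 to 157 CPM in sham and 130 to 170 CPM in BCAS mice.

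Upstream sequences of 4 members are shown because their counts lay at the extremes of the ratio to Mbp described later: Opalin, Mal and Mog had the lowest BCAS-to-sham ratios and Cldn11 the highest. Each run holds the 250 bases before the RefSeq start site, 5′ to 3′ on the strand of the gene, in build mm10. The windows are chr19:41077114-41077363 (minus strand) for Opalin, chr2:127656696-127656945 (minus) for Mal, chr17:37023399-37023648 (minus) for Mog and chr3:31149670-31149919 (plus) for Cldn11. Capitals mark the letters known to be bound by MYRF (CTGGCAC or CTGGTAC) or by SOX factors (ACAAAG or ACAATG), read on both strands.
Opalin: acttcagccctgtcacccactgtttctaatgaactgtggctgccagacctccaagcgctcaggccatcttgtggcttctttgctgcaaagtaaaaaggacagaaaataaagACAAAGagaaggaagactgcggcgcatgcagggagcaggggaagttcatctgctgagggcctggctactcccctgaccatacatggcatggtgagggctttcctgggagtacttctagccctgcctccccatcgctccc
Mal: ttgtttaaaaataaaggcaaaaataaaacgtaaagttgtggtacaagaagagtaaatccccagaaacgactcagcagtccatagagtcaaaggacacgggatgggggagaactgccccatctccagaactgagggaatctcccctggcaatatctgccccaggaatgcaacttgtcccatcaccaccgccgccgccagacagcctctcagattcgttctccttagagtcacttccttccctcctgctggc
Mog: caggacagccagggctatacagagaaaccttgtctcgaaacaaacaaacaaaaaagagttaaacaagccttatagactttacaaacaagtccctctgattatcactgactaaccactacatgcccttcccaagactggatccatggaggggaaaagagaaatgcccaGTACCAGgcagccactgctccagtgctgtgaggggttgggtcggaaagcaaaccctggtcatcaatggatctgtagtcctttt
Cldn11: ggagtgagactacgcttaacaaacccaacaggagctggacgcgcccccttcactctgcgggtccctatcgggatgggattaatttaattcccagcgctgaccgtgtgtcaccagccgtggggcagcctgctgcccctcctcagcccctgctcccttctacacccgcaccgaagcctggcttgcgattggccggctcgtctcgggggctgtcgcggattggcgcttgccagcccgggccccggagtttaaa
The Opalin window held 1 set of SOX letters, the Mog window 1 set of MYRF letters on the opposite strand, and the Mal and Cldn11 windows neither. RefSeq promoters were found for 8 of the members. They have 10 promoters in all, of which 3 are of Mag and overlap in part. MYRF letters were in 4 of the 10 windows (Cnp, Mog and 2 of Mag), against 5.93% of all 32851 promoters, and SOX letters were in 5 (Cnp, Mobp, Opalin and 2 of Mag), against 25.2%. The 2 Mag windows overlap and hold the same MYRF and SOX letters, so that by gene the letters were found in 3 and 4 of the 8 members. The GC content of the 4 windows shown was 54.4% for Opalin, 50.0% for Mal, 46.8% for Mog and 63.6% for Cldn11. These are matches of letters and were not tested for binding.

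Mbp encodes myelin basic protein, which sits on the inner face of the membrane and draws the sheets of compact myelin together. The gene lies on the plus strand of chromosome 18. Its level was 2874, 2711, 1688 and 2738 CPM in sham mice 1 to 4 and 4149, 2488, 3342 and 3492 CPM in BCAS mice 1 to 4. BCAS mice 1, 3 and 4 were above every sham mouse and BCAS mouse 2 lay among the sham mice, so the groups overlapped. The mean was 2503 ± 548 CPM in sham and 3368 ± 683 CPM in BCAS mice (SD, n = 4 each), a log2 fold change of 0.43 (95% confidence interval −0.08 to 0.93, adjusted p = 0.163).

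Mobp encodes myelin-associated oligodendrocyte basic protein, another basic protein of compact myelin (chr9:120149707-120181484, plus strand). Its level was 865, 814, 512 and 798 CPM in sham mice 1 to 4 and 1366, 778, 1052 and 952 CPM in BCAS mice 1 to 4. As for Mbp, BCAS mice 1, 3 and 4 were above the highest sham mouse and BCAS mouse 2 was not. The log2 fold change was 0.47 (95% confidence interval −0.01 to 0.96, adjusted p = 0.115). A share of 1.15% of its exon bases is also annotated to Gm38642.

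Cldn11 encodes claudin-11, the protein of the tight junctions between the layers of central myelin (chr3:31149920-31164324, plus strand). Its level was 138, 133, 82.7 and 127 CPM in sham mice 1 to 4 and 204, 128, 202 and 159 CPM in BCAS mice 1 to 4. BCAS mice 1, 3 and 4 again exceeded all sham mice, and BCAS mouse 2 lay within the sham range. Cldn11 had the largest fold change of the members, 1.44 (95% confidence interval 1.06 to 1.96), and was the 1 member with an unadjusted p under 0.05, at 0.0242 in edgeR, but not after adjustment (adjusted p = 0.0651).

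**Figure D1:**
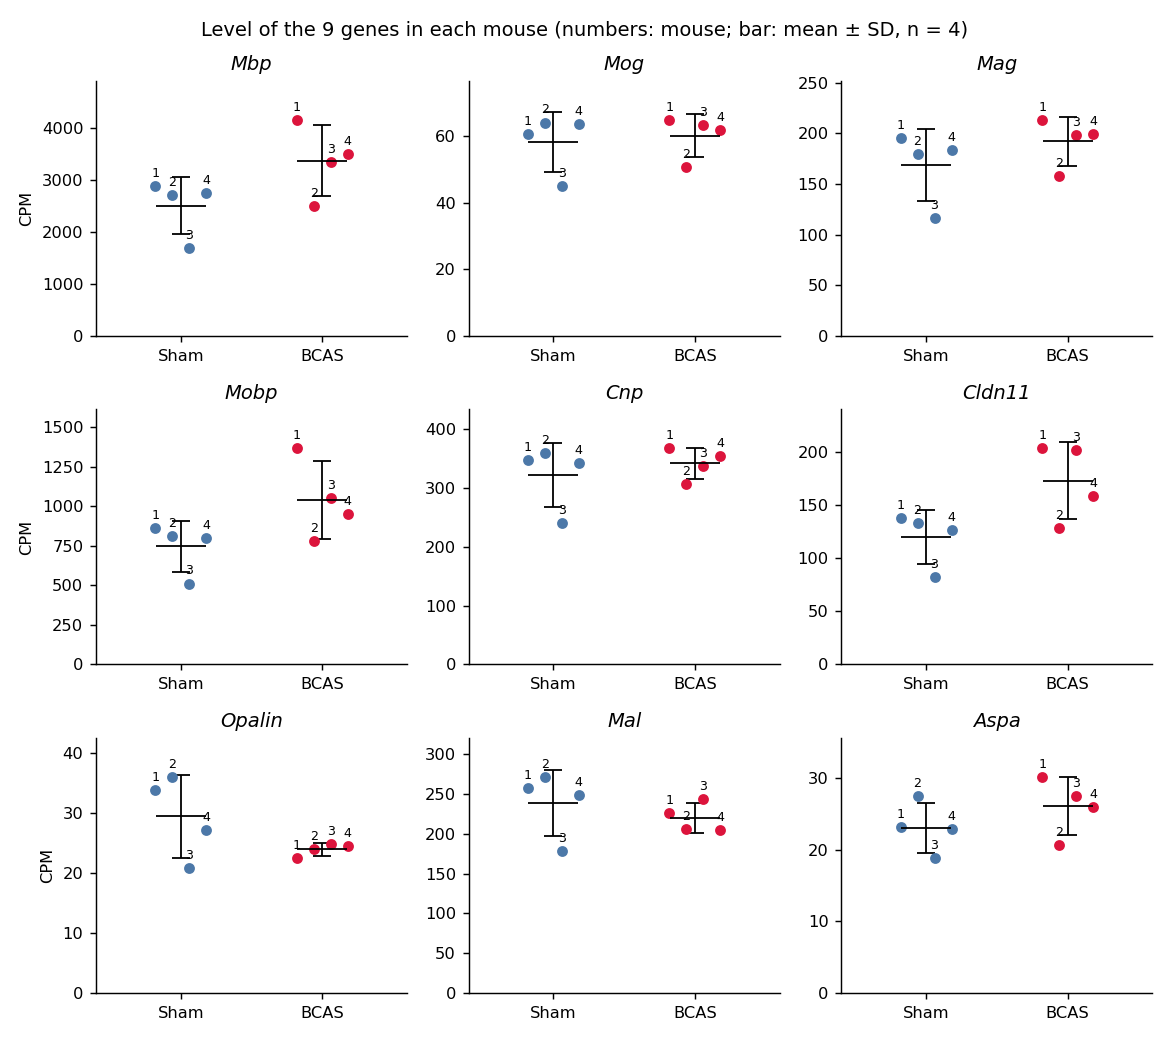
Level of each of the 9 genes (y axis, CPM from 0) in the 4 Sham and 4 BCAS mice (points, numbered by mouse), with the mean and SD of each group as bars. Sham mouse 3 is the lowest point in every panel, and no panel shows groups that do not overlap.

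Mag encodes myelin-associated glycoprotein, an adhesion protein of the innermost myelin layer facing the axon (chr7:30899176-30914873, minus strand). Its level was 195, 179, 117 and 184 CPM in sham mice 1 to 4 and 213, 158, 198 and 199 CPM in BCAS mice 1 to 4. The log2 fold change was 0.19 (95% confidence interval −0.19 to 0.56, adjusted p = 0.400). Mog encodes myelin oligodendrocyte glycoprotein of the outermost surface of the sheath (chr17:37010743-37023398, minus strand). Its level was 60.6, 64.0, 45.0 and 63.5 CPM in sham mice and 64.8, 50.6, 63.2 and 61.8 CPM in BCAS mice, in the same order. Apart from sham mouse 3 and BCAS mouse 2, the 6 Mog values lay within 60.6 to 64.8 CPM, and the log2 fold change was 0.04 (95% confidence interval −0.25 to 0.34, adjusted p = 0.807).

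Cnp encodes a phosphodiesterase of the cytoplasmic channels of non-compact myelin (chr11:100574904-100591729, plus strand). Its level was 347, 360, 240 and 342 CPM in sham mice 1 to 4 and 367, 307, 338 and 355 CPM in BCAS mice 1 to 4. The log2 fold change was 0.09 (95% confidence interval −0.22 to 0.39, adjusted p = 0.651), and Dnajc7 on the opposite strand shares 4.23% of its exon bases. Aspa encodes aspartoacylase, which frees acetate from N-acetylaspartate for lipid synthesis (chr11:73304992-73329596, minus strand). Its level was 23.2, 27.5, 18.8 and 22.9 CPM in sham mice and 30.2, 20.7, 27.5 and 26.0 CPM in BCAS mice. The Aspa groups overlapped across most of their range, with a log2 fold change of 0.18 (95% confidence interval −0.16 to 0.51, adjusted p = 0.370).

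Mal and Opalin were the 2 members with a lower mean in BCAS mice. Mal encodes a proteolipid of membrane trafficking in myelinating cells (chr2:127633226-127656695, minus strand). Its level was 257, 272, 179 and 249 CPM in sham mice 1 to 4 and 226, 206, 244 and 205 CPM in BCAS mice 1 to 4, so that the 4 BCAS mice lay between sham mouse 3 and the other sham mice. The log2 fold change was −0.12 (95% confidence interval −0.43 to 0.19, adjusted p = 0.521).

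Opalin encodes a transmembrane protein of central nervous system oligodendrocytes (chr19:41062474-41077113, minus strand). Its level was 33.9, 36.0, 20.8 and 27.2 CPM in sham mice 1 to 4 and 22.4, 24.0, 24.7 and 24.5 CPM in BCAS mice 1 to 4. The BCAS mice agreed closely, with a SD of 1.04 CPM against 6.90 CPM in sham mice, and all 4 were below sham mice 1, 2 and 4. The log2 fold change was −0.30 (95% confidence interval −0.67 to 0.06, adjusted p = 0.172).

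Together, 0 of the 9 members passed the adjusted p in edgeR (background 32.0% of tested genes), 1 had an unadjusted p under 0.05, and 0 passed the additional threshold of an absolute log2 fold change above 1 (background 12.2%, of which 11.0% higher and 1.28% lower). Groups did not overlap for 0 of 9 members, against 34.8% of all tested genes. The median log2 fold change of the members was 0.18 (0.04 without sham mouse 3), and that of all tested genes was −0.01. limma-voom and limma on log2(CPM + 1) called 0 members, and DESeq2 called Cldn11 alone (adjusted p = 0.0364, background 40.3%). Scaling by library size alone, which raised the median of all genes to 0.08, also placed Cldn11 past the threshold (adjusted p = 0.0374, background 30.8%).

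Sham mouse 3 had the lowest level of all 8 mice for 9 of the 9 members, on average 0.44 log2 units under the sham mean. For comparison, it held the lowest sham value in 34.9% of all tested genes. Without it the SD of log2 CPM among sham mice had a median of 0.061 over the members, against 0.339 with it. The same medians over all tested genes were 0.128 and 0.159. The other 3 sham mice were therefore closer to each other in the members than in the median gene, without matching for level, Opalin and Aspa being the members with the widest spread, 0.212 and 0.146.

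Leaving out sham mouse 3 moved every member down relative to sham. Opalin then passed the threshold, with a log2 fold change of −0.44 (95% confidence interval −0.71 to −0.18, adjusted p = 0.0335), against a background of 23.5% of genes. Mal had a log2 fold change of −0.24 (adjusted p = 0.0994). The groups of these 2 members no longer overlapped, as in 43.0% of all tested genes. Cldn11 had 0.38 (adjusted p = 0.121), and the Mog and Cnp estimates changed sign to −0.068 and −0.039, with intervals that included 0. Mbp had 0.27, Mobp 0.32, Mag 0.04 and Aspa 0.08, also with intervals that included 0.

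**Figure D2:**
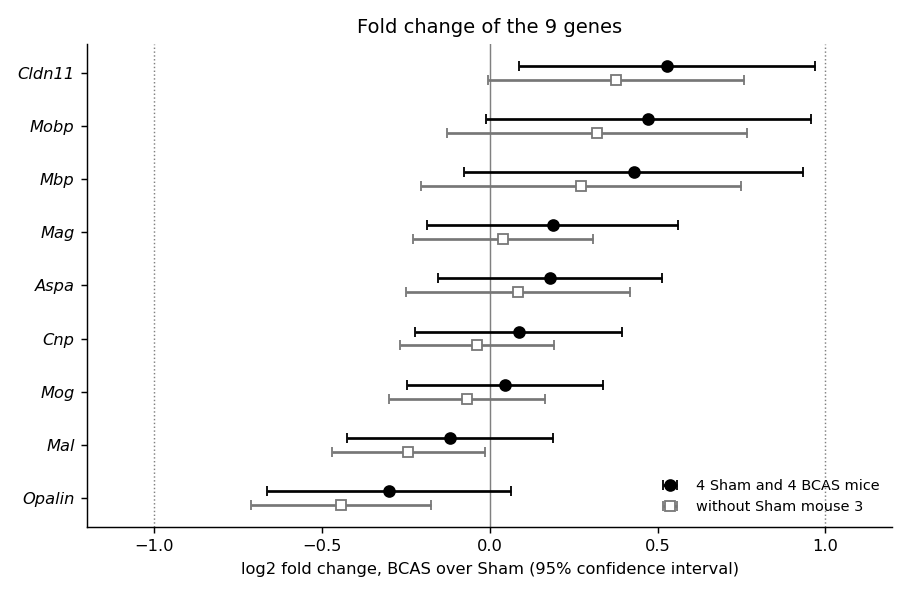
Log2 fold change of BCAS over Sham (x axis) with its 95% confidence interval for the 9 genes (y axis), with all 8 mice (filled circles) and without Sham mouse 3 (open squares). Dotted lines mark the threshold of 1 in each direction. Each estimate is lower without Sham mouse 3, and only the intervals of Opalin and Mal then lie below 0.

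BCAS mice differed among themselves. BCAS mouse 1 had the highest level of all 8 mice for 7 members, and BCAS mouse 2 had the lowest BCAS level for 7 members. Over all tested genes BCAS mouse 1 was highest in its group for 37.0% and BCAS mouse 2 lowest for 36.4%. The 9 genes together took 0.420% to 0.693% of the counts in BCAS mice and 0.289% to 0.455% in sham mice. Within BCAS mice Mobp had a SD of 0.338 log2 units and Cldn11 of 0.318, whereas Opalin had 0.063, Cnp 0.112 and Mal 0.121. The BCAS mouse with the most Mbp was not the one with the most Opalin: Opalin was the lowest member relative to sham in each of the 4 BCAS mice, and lowest of all in BCAS mouse 1.

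Without BCAS mouse 2, 3 members passed the threshold, against a background of 46.5% of genes: Mbp at 0.56 (adjusted p = 0.0375), Mobp at 0.60 (adjusted p = 0.0291) and Cldn11 at 0.66 (adjusted p = 0.0115), all as log2 fold changes. Leaving out any of the other 6 mice called 0 members.

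**Figure D3:**
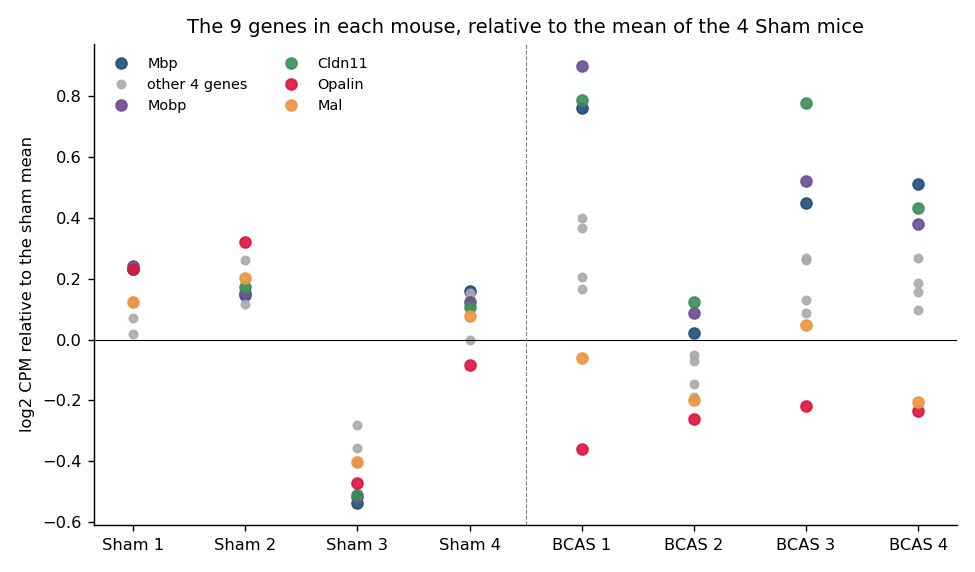
Log2 CPM of the 9 genes relative to the mean of the 4 Sham mice (y axis) in each mouse (x axis), with 5 genes in colour and the other 4 in grey. The genes lie close together in each Sham mouse, with Sham mouse 3 below the rest. They spread apart in BCAS mice, from −0.36 for Opalin to 0.90 for Mobp in BCAS mouse 1. Each gene is set to its own Sham mean, so part of this contrast in spread follows from the scale.

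To ask whether the members kept their proportions, the log2 ratio of the count of each gene to that of Mbp in the same mouse was compared between the groups with an exact two-sided permutation test, whose smallest p with 4 mice per group is 0.0286. This ratio needs no normalization, and the 8 ratios share the Mbp count, so the choice of Mbp sets each of them and they are not independent. For Opalin, the sham mice had 11.8, 13.3, 12.3 and 9.94 counts per 1000 Mbp counts and the BCAS mice had 5.40, 9.65, 7.40 and 7.01. All BCAS mice were below all sham mice, sham mouse 3 included, with a mean ratio of 0.613 of that in sham (log2 difference −0.71). For Mal, the ratio per 1000 Mbp counts was 89.5, 100.2, 105.7 and 90.9 in sham and 54.5, 82.8, 73.0 and 58.6 in BCAS mice, 0.688 of the sham level (log2 difference −0.54).

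Mog and Mag also had 4 of 4 BCAS mice below all sham mice in this ratio, which makes 4 of the 8 ratios. The mean of Mbp itself was higher in BCAS mice, which lowers the ratio of any gene to it, and among the other 17135 tested genes the ratio to Mbp lay below the sham range in all BCAS mice for 13.4% and above it for 7.41%. Per 1000 Mbp counts, Mog had 21.1 to 26.7 counts in sham and 15.6 to 20.4 in BCAS mice, a log2 difference of −0.38. Mag had 66.1 to 69.2 in sham and 51.4 to 63.4 in BCAS mice, a log2 difference of −0.23. In the exact permutation test p was 0.0286 for Opalin, Mal, Mog and Mag alike. After Benjamini-Hochberg adjustment over the 8 ratios it was 0.0571, so 0 of 8 passed the adjusted threshold. As 0.0286 is the smallest p of this test, the adjusted p of 4 such ratios among 8 could not be lower, whatever the size of the differences.

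The remaining ratios overlapped between the groups. Cnp had 121 to 142 counts per 1000 Mbp counts in sham and 88.6 to 124 in BCAS mice (exact permutation p = 0.0571, adjusted p = 0.0914), and 3 BCAS mice were below all sham mice. Aspa had a log2 difference of −0.26 (exact permutation p = 0.114, adjusted p = 0.152). Mobp and Cldn11 had mean ratios near those in sham: Mobp had 291 to 303 counts per 1000 in sham and 273 to 329 in BCAS mice (log2 difference 0.04, exact permutation p = 0.60), and Cldn11 had 46.4 to 49.1 and 45.6 to 60.4 (log2 difference 0.09, exact permutation p = 0.40).

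**Figure D4:**
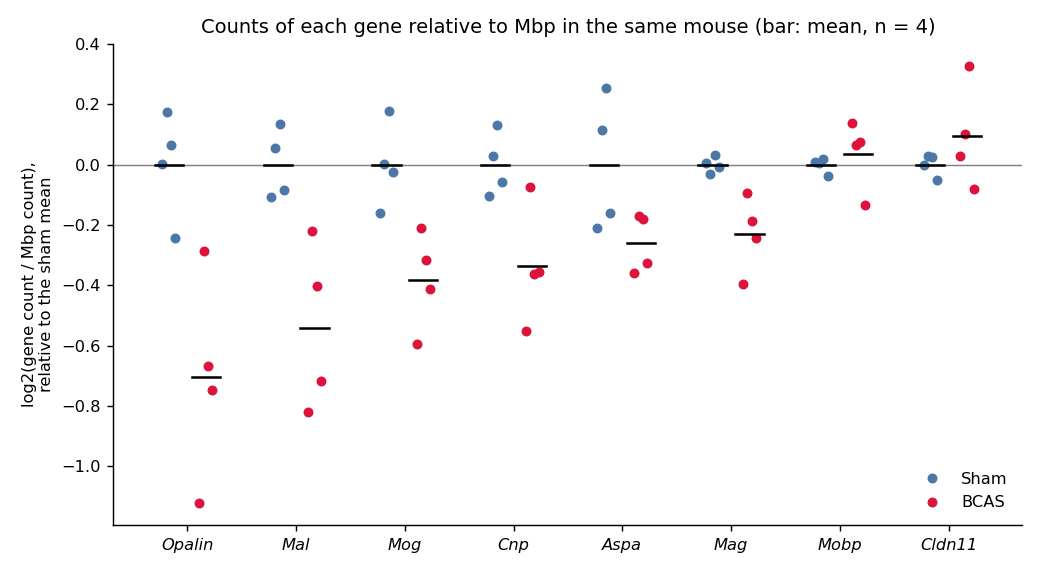
Log2 ratio of the count of each gene to the Mbp count in the same mouse, relative to the Sham mean (y axis), for the other 8 genes (x axis), with each mouse as a point and the group mean as a bar. For Opalin, Mal, Mog and Mag the 4 BCAS points lie below the 4 Sham points, and for Mobp and Cldn11 they lie on both sides of them.

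Levels of different genes were compared per length, as TPM, in which counts are divided by exon length before they are scaled to the library. In sham mice the order of mean TPM was Mbp with 1251 ± 250, Mobp with 458 ± 88.4, Cnp with 372 ± 55.8, Mal with 362 ± 54.8, Cldn11 with 270 ± 51.5, Mag with 174 ± 33.0, Mog with 144 ± 19.5, Opalin with 67.3 ± 14.1 and Aspa with 16.3 ± 2.14 (SD, n = 4). Mbp lay 76.7-fold above Aspa and was the 59th most abundant mRNA in sham and the 33rd in BCAS mice by mean TPM. Neighbours in this order kept it in 8 of 8 mice, except Mal and Cldn11. Mal was above Cldn11 in 5 of 8 mice: by mean TPM it led in sham, 362 against 270, and trailed in BCAS mice, 331 ± 20.8 against 386 ± 69.7. From Mobp down to Mog, the sham range of each gene overlapped that of the next. Without sham mouse 3 the ranges overlapped only for Cnp (393 to 408) and Mal (380.5 to 404), while Mobp (491 to 520), Cldn11 (289 to 305), Mag (182 to 197) and Mog (146 to 158) stood apart from their neighbours.

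Other genes of the myelin and oligodendrocyte program were counted in 6 further lists of 64 tested genes. At an adjusted p under 0.05, 16 rose (background 19.2%), 1 fell (background 12.8%) and 47 did not pass, and 9 of the 16 also passed the fold threshold (background 11.0% higher). Groups did not overlap for 15 of the 64, against 34.8% of all tested genes. The median log2 fold change was 0.26, and 0.17 without sham mouse 3. Without sham mouse 3 the counts were 12 higher and 5 lower, without BCAS mouse 1 they were 12 and 2, and without BCAS mouse 2 they were 29 and 3. Leaving out any of the other 5 mice gave 12 or 13 higher and 0 lower.

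Among 11 other compact myelin and membrane proteins, 4 rose and 7 did not pass. Cd9, a tetraspanin, rose from 35.4 to 272 CPM (log2 fold change 2.94, adjusted p = 0.0018), Pmp22 from 26.4 to 101 CPM (1.93), Evi2a from 21.2 to 58.9 CPM (1.47) and Cd82, another tetraspanin, from 20.5 to 46.9 CPM (1.19). Evi2a shares 19.2% of its exon bases with Evi2 on the same strand, and Cd9 10.7% with Gm26728 on the opposite strand. None of these 4 is expressed by oligodendrocytes alone, and Cd9 and Cd82 are also made by microglia. The microglia and macrophage list rose in the same mice, 14 of 14 genes, with a summed level of 446 to 537 CPM in sham and 2428 to 9792 CPM in BCAS mice, and its part in these increases was not tested.

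Of the 11 tested genes of the inner tongue, paranode and axon adhesion, 0 passed in edgeR, limma-voom or limma on log2(CPM + 1), with 4 at an unadjusted p under 0.05 in edgeR, and DESeq2 called 1 higher and 1 lower. In edgeR, 3 were lower without sham mouse 3, 1 was lower without BCAS mouse 1, and 3 were higher and 1 lower without BCAS mouse 2. Nfasc, the neurofascin of nodes and paranodes, had 311 ± 17.5 CPM in sham and 291 ± 10.6 CPM in BCAS mice (log2 fold change −0.09, adjusted p = 0.399), and Cadm4 had 310 and 253 CPM (−0.30, adjusted p = 0.0928). Of the 3 gap junction genes, 0 passed in edgeR, with 0 at an unadjusted p under 0.05, and 0 in DESeq2, limma-voom and limma on log2(CPM + 1), and 1 was higher without BCAS mouse 2. Gjc3 had a log2 fold change of 0.03.

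Of 9 genes of myelin lipid synthesis and transfer, 3 rose: Elovl1, a fatty acid elongase, from 13.2 to 32.6 CPM (log2 fold change 1.30, adjusted p = 0.0127), Gltp, a glycolipid transfer protein, from 41.7 to 97.5 CPM (1.23, adjusted p = 0.0109), and Cers2, the ceramide synthase of very long chains, from 54.1 to 94.2 CPM (0.80, adjusted p = 0.0143). The other 6 did not pass, with log2 fold changes from −0.06 for Fa2h to 0.24 for Degs1 (both named after their values were seen). Of all tested genes, 19.2% were higher. The part of other cell types, microglia included, in the 3 increases was not tested. All 10 transcription factors had a positive log2 fold change, with a median of 0.29, and 1 passed, Tcf7l2 at 0.74 (adjusted p = 0.0473), while 5 passed without BCAS mouse 2, 1 without sham mouse 2 and 0 without any other mouse. Tcf7l2 is an effector of Wnt signalling that is also expressed in the thalamus.

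Of 20 other mature oligodendrocyte genes, 8 rose, 1 fell and 11 did not pass. Without BCAS mouse 2 the count that rose was 11, and without any of the other 7 mice it was 5, while 2 fell without sham mouse 3. Klk6, a secreted serine protease, rose from 2.27 to 28.8 CPM (log2 fold change 3.67, adjusted p = 0.0043) and Apod, apolipoprotein D, from 125 to 628 CPM (2.33, adjusted p = 0.0065). Trf, transferrin, of whose exon bases 63.5% are shared with Gm20425 on the same strand and so may not be counted, rose from 6.45 to 15.3 CPM (1.25, adjusted p = 0.0401) and Ptgds, a prostaglandin D synthase also made by the meninges and choroid plexus, from 667 to 1320 CPM (0.98, adjusted p = 0.0029). The gene that fell was Aatk at −0.41, which is outside the rule for named genes and was chosen after its value was seen. Without sham mouse 1, 2 or 4 or BCAS mouse 3 or 4, 0 genes of the list were lower. Pan-neuronal genes fell in the main fit as well, 9 of 14, and their part in the decrease of Aatk was not tested.

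Of 9 tested genes of newly formed oligodendrocytes, 4 rose (background 19.2%) and 1 fell (background 12.8%). Bmp4 had a log2 fold change of 1.27, Itpr2 of 1.11, Enpp6 of 0.73 and Gpr17, a receptor of the premyelinating stage, of 0.59. The gene that fell was Tnr at −0.24, named after its value was seen, and 0 genes of the list were lower in 6 of the 8 fits that leave out a mouse. Of 10 precursor genes, 5 rose and 0 fell, against the same background. Those that rose included Cspg4 (1.25, adjusted p = 0.0033), Ednrb (1.10, adjusted p = 0.0088), Vcan (0.71, adjusted p = 0.0320) and Pdgfra (0.51, adjusted p = 0.0238). The median log2 fold change was 0.54 in the first list and 0.46 in the second. Without sham mouse 3 the counts that rose were 2 and 3, and 0 fell in either list. When each mouse was left out in turn the counts that rose ran from 2 to 6 in both lists. Astrocyte and endothelial markers also rose in the main fit, 8 of 12 and 2 of 10 genes. The part of other cell types in the increases of the 2 lists was not tested.

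**Figure D5:**
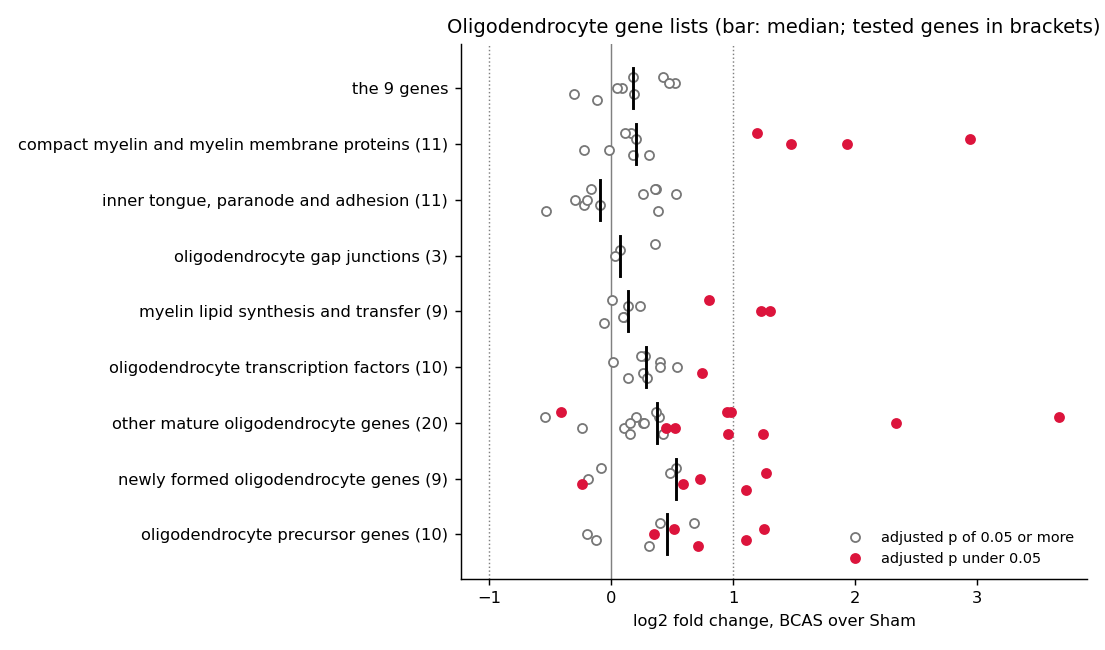
Log2 fold change of BCAS over Sham (x axis) of the 9 genes and of each tested gene of 8 further oligodendrocyte lists (y axis), with the median of each list as a bar and filled points where the adjusted p was under 0.05. The 9 genes lie between −0.30 and 0.53 with no filled point, while other lists hold points up to 3.67.

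Markers of other cell types and regions were counted in the same fit. Of 14 pan-neuronal genes 9 fell (5 without sham mouse 3, and 1 to 13 over the 8 fits that leave out a mouse), and their summed level was 12151 to 13817 CPM in sham and 4791 to 10411 CPM in BCAS mice. Of 12 astrocyte genes 8 rose (3 without sham mouse 3, and 3 to 10 over the 8 fits), with sums of 5426 to 6284 and 6279 to 7547 CPM. Of 10 endothelial genes 2 rose, of 5 hemoglobin genes 2, of 10 striatal genes 1, and of 10 hippocampal and thalamic genes 3 rose and 2 fell. Without sham mouse 3 these counts were 1, 1, 0, 2 and 1, and when each mouse was left out in turn they ran from 0 to 4, 1 to 3, 0 to 3, 2 to 4 and 1 to 3. Of 6 tested Schwann cell genes 1 rose, Fgl2, which macrophages also express (3.52, adjusted p = 0.0020), and 1 fell, Drp2 (−0.45, adjusted p = 0.0192), with 0 lower without sham mouse 1, BCAS mouse 3 or BCAS mouse 4. Of 8 tested choroid plexus genes 0 passed in edgeR, with 2 at an unadjusted p under 0.05, and 0 in DESeq2, limma-voom and limma on log2(CPM + 1).

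Across the 4 BCAS mice the microglial sum was 9792, 5118, 4905 and 2428 CPM for mice 1, 3, 4 and 2. The summed level of the 9 members had the same order, 6643, 5492, 5474 and 4160 CPM, with mice 3 and 4 close together. Taken singly, Mobp, Cldn11, Mog and Aspa kept this order, whereas Mbp, Mag, Cnp, Mal and Opalin did not. The neuronal sum was lowest in BCAS mouse 1 and highest in BCAS mouse 2. Since CPM is a share of the library, a level of a member also depends on the other RNA in the sample. The part of these cell types in the levels of the members was not tested.

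Over the 8 mice, the genes whose log2 CPM was most like the mean of the members were Qdpr, dihydropteridine reductase (Pearson r = 0.977), Lpar1, a lysophosphatidic acid receptor (0.977), Tmem88b (0.977), S1pr5, a sphingosine-1-phosphate receptor (0.976), and Myh14, a nonmuscle myosin heavy chain (0.976), among 15865 genes. After subtracting the group means they were Nsl1 (0.987), Fam53b (0.982), Lpar1 (0.980), Qdpr (0.978) and Pmaip1 (0.977). The 8 points share the low value of sham mouse 3, and by Spearman's rho 0 of the first 5 and 1 of the second 5 were again among the 5 most alike. Among the members, r to the mean was 0.40 for Opalin and 0.71 for Mal, and 0.91 to 0.98 for the other 7. After subtracting the group means it was 0.75 for Opalin and 0.91 for Mal. Likeness was not computed without sham mouse 3.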

How the data were processed

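Poly(A) RNA of the right cerebral cortex of 8 mice was sequenced in read pairs. Per the methods and the submitters' processing notes, the authors trimmed the reads with Trim Galore, aligned them to mm10 with HISAT2 and sorted them with SAMtools 1.9. The deposited values are raw exon counts of read pairs per gene from featureCounts. The file headers name featureCounts 2.0.1 and GENCODE vM20 without a strand option, whereas the methods name 1.6.3 and RefSeq genes, so reads of genes that overlap on opposite strands cannot be told apart. Symbols came from GENCODE vM21 through the gene identifiers.

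Counts were tested with edgeR 4.0.16 in R 4.3.3: TMM normalization, filterByExpr (minimum count 10, minimum total 15), the quasi-likelihood F-test for the difference BCAS minus sham, with no covariate, and Benjamini-Hochberg adjustment over the 17136 tested genes. Thresholds were an adjusted p of 0.05 and an absolute log2 fold change of 1. CPM are TMM-normalized. TPM were computed from counts and exon lengths. Ratios used log2(count + 0.5) and exact permutation tests over 70 arrangements. Alternatives were DESeq2 1.42.0, limma 3.58.1 (voom, and log2(CPM + 1)), other scalings and filters, a replicate block and leaving out each mouse. Promoters are from the RefSeq table of GRCm38.p6, the mm10 assembly, of which the 250 bases before the start were read. The scripts were tested on simulated data. Figures were drawn with matplotlib 3.10.9.

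The members and lists were chosen with earlier results of these data known. Named genes are the 9 members and, in each other list, genes past both thresholds (at most 4 per direction by size of change), then those past the adjusted p up to 4 in all, or the 2 with the highest CPM where none passed. The 5 genes most like the members were named with and without group means. Tcf7l2, Bcas1 and Enpp2 stand in 2 lists each. An SD is over the 4 mice of a group. Ratios to a further reference gene and the values of some other listed genes are not reported here.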

Additional observations from a re-analysis of the deposited data

Results flagged for a closer look

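Within groups of 4 mice, a mouse was singled out where its gap to the nearest other mouse exceeded Dixon's 95% critical share of the whole range of the group. Of 70 groups of values examined, 10 were singled out, and chance gives about 1 in 20. Of the 18 groups of single members, 2 were among them: Mbp in sham mice (gap over range, Dixon's ratio, 0.863) and Cnp in sham mice (ratio 0.852), both for the low value of sham mouse 3. The same mouse was low in the sham sums of the compact myelin and membrane proteins (0.968), the myelin lipid genes (0.853), the newly formed oligodendrocyte genes (0.879) and all 6 other myelin and oligodendrocyte lists together (0.852), and high in the sum of the choroid plexus genes (0.961), where Ttr had 696 CPM in it and 7.72 to 34.2 CPM in the other sham mice. What sets this library apart was not tested.

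In BCAS mice, the sum of the inner tongue, paranode and adhesion genes was low in mouse 2 (ratio 0.8295), and the sum of the striatal genes was high in mouse 4 (ratio 0.943; 1020 CPM against 505 to 535 CPM in the other BCAS mice). The sum of the hemoglobin genes was low in sham mouse 4 (ratio 0.856).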

How the results depend on the processing

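The counts of members past both thresholds were 0 under every alternative run, and their median log2 fold change stayed positive, from 0.04 to 0.29 when a mouse was left out. The number of members past the adjusted p was 1 with DESeq2 and 1 with library size alone, and 0 to 3 when a mouse was left out. When a mouse was left out, the log2 fold change ranged from −0.068 to 0.13 for Mog and from −0.039 to 0.15 for Cnp, both reversed without sham mouse 3. The other myelin and oligodendrocyte lists had 12 to 32 genes past the adjusted p when a mouse was left out, against 17, the highest without BCAS mouse 2. Over all genes, 5490 passed, against 2549 (without sham mouse 1) to 8166 (without BCAS mouse 2). Between 0 and 5 ratios to Mbp passed when a mouse was left out. Without BCAS mouse 2 these were Mog, Mag, Cnp, Opalin and Mal, all lower in BCAS mice. Without BCAS mouse 4 they were Mag, Opalin and Mal, which were lower, and Mobp and Cldn11, which were higher (log2 differences 0.09 and 0.15). Each had an adjusted p of 0.0457 in the exact permutation test over 35 arrangements. The cause of these shifts was not tested beyond the change in the mice used.

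Samples of the same number did not deviate together (correlations of −0.046, −0.103, −0.0082 and 0.0013). Those of unlike number had correlations from −0.112 to 0.125. The labels give a number and no pairing, and these correlations cannot show whether mice of 1 number shared a batch. With the replicate block, 3546 genes and 0 members passed, and the ratios, whose p then cannot go below 0.125, gave 0. With 4 mice per group, intervals of the members' log2 fold changes are wide, and differences smaller than these intervals could not be detected.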
